A study of Mus musculus with 24 samples.

Results

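Atf4, Atf5, Atf3, Ddit3, Cebpb, Trib3, Chac1, Ppp1r15a, Sesn2 and Nupr1 were taken as the core of the integrated stress response, the arm that runs from the kinase PERK through ATF4 to CHOP. They were chosen by name as its transcription factors and effectors, with earlier results of these data known. Each was read through every probe whose transcript belongs to the gene. The 10 genes had 12 probes, of 16935 genes and 38115 probes that were measured in all. Atf4 and Atf5 had 2 probes each and the other 8 genes 1 each. On all 24 arrays the scanner software marked all 12 probes as well above background.

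When unfolded protein builds up in the endoplasmic reticulum (ER), PERK phosphorylates the translation factor eIF2, and general protein synthesis slows. The Atf4 transcript escapes this block through upstream open reading frames, so ATF4 activity is set largely by translation, while its target genes respond by transcription. Other eIF2 kinases, activated by amino acid shortage, haem shortage or double-stranded RNA, feed into the same step, and prolonged activity with CHOP (the product of Ddit3) is known to favour cell death.

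The study measured total RNA of cerebella from 28-day-old mice labelled C57BL/6, with 1 single-colour array per sample. Knockouts (KO) carried floxed Derl1 or floxed Derl2 together with a Cre recombinase under the nestin promoter, which is active in neural progenitors, so vessels and microglia are not its known targets. Controls were homozygous for the same floxed allele, and every Derlin-1 or Derlin-2 array thus came from floxed mice. Derlin-1 and Derlin-2 are ER membrane proteins that act in the disposal of misfolded proteins.

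In a numbered Derlin-1 series and in the Derlin-2 line, controls and KO each received either water (vehicle) or 200 mg/kg 4-phenylbutyrate (4PBA), a chemical chaperone, injected intraperitoneally every day between postnatal days 14 and 28. A lettered Derlin-1 series held controls and KO with 4PBA and controls and KO whose labels name neither 4PBA nor vehicle, called untreated here. This gave 12 groups of 2 arrays, and the comparisons ask whether either loss, or 4PBA, moved these genes. The labels do not say that the 2 arrays of a group came from separate mice, so p-values measure the spread between these arrays, which may be technical.

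Each series lay on a slide of its own. Arrays without 4PBA lay in the first row and arrays with 4PBA in the second, and controls and KO lay in different columns, so slide position and group cannot be told apart within a slide. The share of spots well above background ran from 57.7% to 68.4% per array. Transcripts of granule neurons (Gabra6) and Purkinje cells (Pcp2) were well above background on all 24 arrays. The Derl1 probe lay within the range of Derlin-1 controls (0.76 to 1.22) on 5 of the 8 Derlin-1 KO arrays, and below it on untreated KO a (0.14), lettered 4PBA KO a (0.64) and vehicle KO 2 (0.70). On 3 of the 4 arrays labelled Derlin-2 KO the Derl2 probes were low, whereas on Derlin-2 KO vehicle 1, as labelled, Derl2 was at a control's level. Derl3 on that array (-1.85) lay above its vehicle controls (-3.01 and -2.75), so whether the label is right was not settled. The array labelled 4PBA KO b, of the lettered Derlin-1 series, had the Derl3 level of a control (-2.27, against -2.54 and -2.18 in its controls and 0.17 on array a). Derl3 is itself a stress response gene and not the deleted gene, and Derl1 on that array (0.93) did not tell KO from control, so whether its label is right was not settled, and leaving it out selects on the response. KO and 4PBA comparisons of the 10 genes that hold either array are given with and without it.

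Short stretches of the promoters are shown because ATF4 and CHOP act as partners of C/EBP proteins on a composite site, the C/EBP-ATF response element, which lies upstream of many of their target genes. In the 250 bases before the start of transcription (RefSeq, GRCm38.p6; 10 of 10 genes matched), its core, written TGATGNAA and searched on both strands, was found for 3 of the 10 genes, Atf3, Chac1 and Nupr1. Of all 27025 genes with such a window 3.91% held it. The cAMP response element TGACGTCA, a site for ATF and CREB proteins, was found before Ppp1r15a alone of the 10, against 1.77% of all genes. The ER stress response element (CCAAT, 9 bases of any kind, CCACG), read by ATF6, was found for 0 of the 10 and for 0.13% of all genes. A match is a run of letters and not a measured binding site. Capitals mark the matches, which lie on the opposite strand in Atf3, Chac1 and Nupr1. The stretches next to the start are added for Trib3 and Ddit3, the genes of the pseudokinase TRIB3 and of CHOP, in which none of these letters were found.
Atf3, chr1:191183416-191183463, minus strand: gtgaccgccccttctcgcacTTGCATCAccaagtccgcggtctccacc
Chac1, chr2:119351029-119351076, plus strand: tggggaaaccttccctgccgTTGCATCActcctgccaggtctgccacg
Nupr1, chr7:126625553-126625600, minus strand: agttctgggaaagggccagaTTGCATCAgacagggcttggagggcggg
Ppp1r15a, chr7:45526269-45526300, minus strand: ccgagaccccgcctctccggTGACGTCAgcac
Trib3, chr2:152344061-152344180, minus strand: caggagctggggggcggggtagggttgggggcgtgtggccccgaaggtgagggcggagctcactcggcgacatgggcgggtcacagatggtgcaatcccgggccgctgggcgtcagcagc
Ddit3, chr10:127290673-127290792, plus strand: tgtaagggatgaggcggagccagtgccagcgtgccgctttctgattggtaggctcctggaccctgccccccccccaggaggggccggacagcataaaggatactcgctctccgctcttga

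Loss of Derlin-1 raised 9 of the 10 genes in cerebella without 4PBA. Trib3 rose 9.99-fold, Atf3 4.77-fold, Chac1 4.55-fold, Cebpb 3.10-fold, Ddit3 2.93-fold, Atf5 2.48-fold, Nupr1 2.20-fold, Sesn2 1.61-fold and Atf4 1.37-fold, while Ppp1r15a was 1.22-fold higher and did not pass (limma, adjusted p under 0.05 over all genes). Of all genes 10.6% were called in this comparison in either direction, and 5.26% were called higher. The median log2 change of the 10 genes was 1.43, against -0.01 for all genes. Numbered arrays alone gave 1.27 and lettered arrays 1.49. The calls rest on the arrays of both series: in the numbered series alone 0 of the 10 passed (limma, adjusted p 0.084 to 0.693), with 0.0118% of all genes called, and in the lettered series alone 7 passed, with 3.54% of all genes called.

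**Figure D1:**
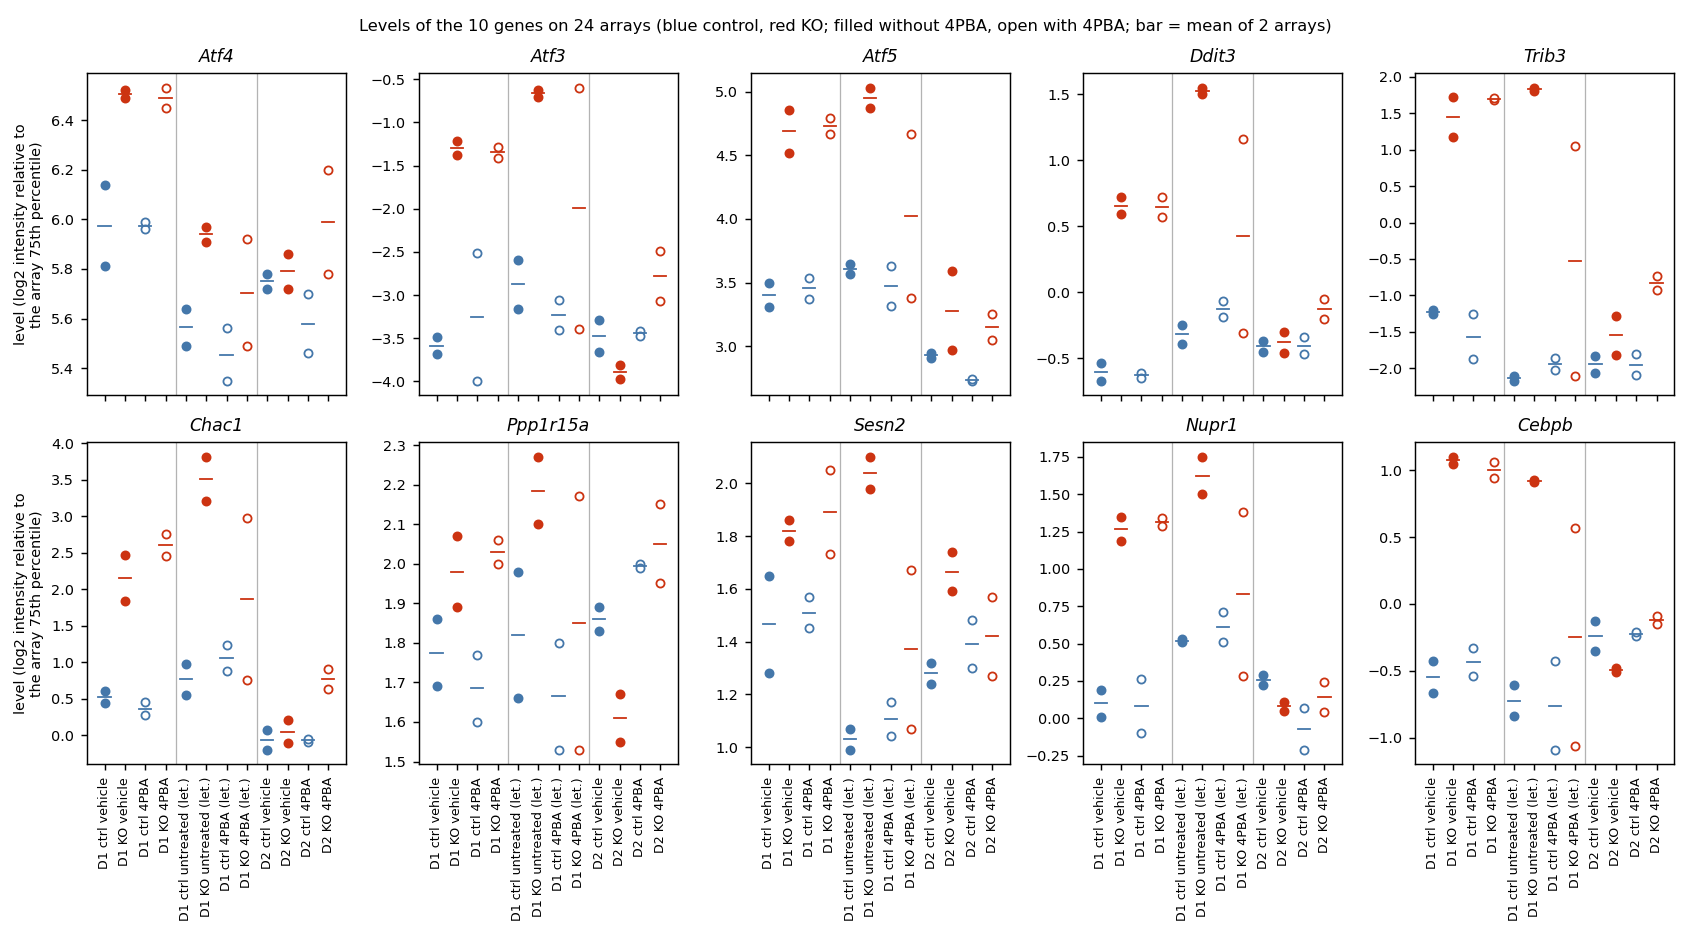
Level of each of the 10 genes on every array, as log2 intensity relative to the array's 75th percentile, by group (D1 and D2, Derlin-1 and Derlin-2 line; let., lettered series; points, arrays; bars, means of 2 arrays; vertical axes differ between genes). For each gene the 4 Derlin-1 KO arrays without 4PBA lie above the controls of their own slide and treatment, and 1 of the lettered Derlin-1 KO arrays with 4PBA lies at the level of the controls.

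Atf4, the transcription factor at the head of the group, moved least among the genes that passed. Levels are given as log2 intensity above or below the 75th percentile of the array. In the numbered series its brighter probe (A_55_P1979728) read 6.14 and 5.81 in vehicle controls and 6.52 and 6.49 in vehicle KO arrays. Lettered arrays read 5.64 and 5.49 in untreated controls and 5.91 and 5.97 in untreated KO arrays. KO and control arrays did not overlap in either series. The log2 change was 0.46 (SE 0.11, adjusted p 0.021). The second probe (A_52_P139727) read 1.10 and 0.92 in vehicle controls against 1.69 and 1.69 in vehicle KO arrays, and 1.59 and 1.47 against 1.95 and 1.93 in the lettered series. When every probe was fitted, it changed by 0.54 (SE 0.11, adjusted p 0.0162). The Atf4 call was lost without any 1 of 5 arrays: vehicle control 2, vehicle KO 1, vehicle KO 2, untreated control b or untreated KO a (adjusted p 0.0569 to 0.083).

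Atf5 encodes a related factor whose translation is regulated in the same manner as that of ATF4. Its brighter probe (A_55_P2105858) read 3.50 and 3.31 in vehicle controls and 4.86 and 4.52 in vehicle KO arrays. Lettered arrays read 3.57 and 3.65 in untreated controls and 4.87 and 5.03 in untreated KO arrays. The change was 1.31 (SE 0.21, adjusted p 0.00324), and the second probe (A_51_P269216) gave 1.41 (SE 0.24, adjusted p 0.00718) when every probe was fitted. Both probes of both genes thus rose. Over all 12 probes 11 passed in that fit, in which 5.09% of all probes were called.

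Ddit3 encodes CHOP, a factor known for its link to cell death under ER stress. Ddit3 (A_52_P533146) read -0.67 and -0.54 in vehicle controls and 0.72 and 0.59 in vehicle KO arrays. The lettered series read -0.25 and -0.39 in untreated controls and 1.55 and 1.50 in untreated KO arrays. Each of these 4 KO arrays lay above all 12 control arrays of the study, whose highest level was -0.07. The change was 1.55 (SE 0.21, adjusted p 0.00203), with 1.26 among numbered and 1.84 among lettered arrays.

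Atf3, a stress-induced factor of the same family, was read by 1 probe (A_52_P452689). It read -3.68 and -3.49 in vehicle controls against -1.21 and -1.38 in vehicle KO arrays, and -2.59 and -3.16 against -0.71 and -0.62 in the lettered series. The change was 2.25 (SE 0.44, adjusted p 0.00732). Cebpb, whose product pairs with ATF4 and CHOP, read -0.43 and -0.67 in vehicle controls against 1.10 and 1.05 in vehicle KO arrays. Among lettered arrays its probe (A_55_P2165869) read -0.61 and -0.84 in untreated controls against 0.91 and 0.93 in untreated KO arrays. The change of Cebpb was 1.63 (SE 0.25, adjusted p 0.0026), nearly equal in both series (1.62 and 1.64).

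Among the effectors Trib3 had the widest gap. TRIB3 is a pseudokinase induced by ATF4 and CHOP that dampens their activity. Its probe (A_55_P2009988) read -1.25 and -1.20 in vehicle controls and 1.73 and 1.17 in vehicle KO arrays. Lettered arrays read -2.17 and -2.11 in untreated controls and 1.81 and 1.85 in untreated KO arrays. The levels of KO arrays were alike in both series, whereas the controls of the lettered series were lower. The change was 3.32 (SE 0.45, adjusted p 0.00203), with a 95% confidence interval from 2.36 to 4.28, and it ranked 11 among 16935 genes by size.

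Chac1 encodes an enzyme that breaks down glutathione. Its probe (A_51_P134812) read 0.44 and 0.60 in vehicle controls and 2.47 and 1.83 in vehicle KO arrays, then 0.55 and 0.98 in untreated controls and 3.21 and 3.81 in untreated KO arrays. The change was 2.19 (SE 0.34, adjusted p 0.00283), with 1.63 among numbered and 2.74 among lettered arrays. The difference between the series was not called for any of the 10 genes (smallest adjusted p 0.978; 1 gene with an unadjusted p under 0.05; 0.0059% of all genes called).

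Nupr1 encodes a small stress-induced chromatin protein. It (A_51_P519251) read 0.19 and 0.01 in vehicle controls and 1.35 and 1.19 in vehicle KO arrays, and 0.51 and 0.53 against 1.50 and 1.75 in the lettered series (change 1.14, SE 0.17, adjusted p 0.00274). Sesn2 encodes sestrin 2, which restrains mTORC1 signalling. It (A_51_P161354) read 1.28 and 1.65 in vehicle controls and 1.86 and 1.78 in vehicle KO arrays, a narrow gap, and 1.07 and 0.99 against 2.10 and 1.98 in the lettered series (change 0.69, SE 0.13, adjusted p 0.00552).

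Ppp1r15a encodes GADD34, which directs a phosphatase to eIF2 and so reverses the response. It was the member that did not pass. Its probe (A_55_P2136880) read 1.86 and 1.69 in vehicle controls and 1.89 and 2.07 in vehicle KO arrays, and 1.98 and 1.66 in untreated controls and 2.27 and 2.10 in untreated KO arrays. The difference was 0.29 (SE 0.12, adjusted p 0.147), with a confidence interval from 0.03 to 0.55. KO arrays lay above controls within both slides, as they did for all 10 genes. Over all genes 11.4% had such a gap upwards.

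**Figure D2:**
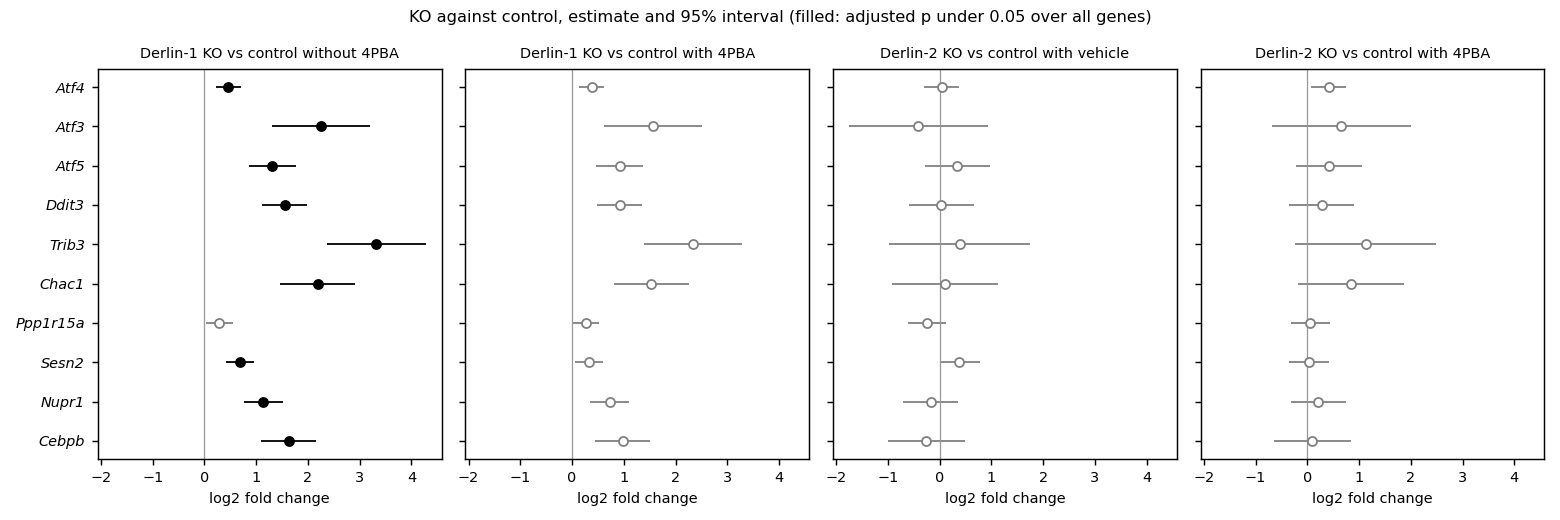
Log2 fold change of each gene between KO and control in the 4 comparisons, with 95% confidence intervals (points; filled where the adjusted p over all genes was under 0.05). Filled points occur in the Derlin-1 comparison without 4PBA alone, from 0.46 for Atf4 to 3.32 for Trib3; with 4PBA the Derlin-1 estimates run from 0.26 to 2.34.

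The kinases and translation factors upstream of ATF4 were compared through a list of 15 genes for eIF2 kinases, eIF2, eIF2B and their regulators. In Derlin-1 KO cerebella without 4PBA 3 of the 15 passed, all higher, and the list median was 0.00. They were Dnajc3, which encodes an ER co-chaperone and inhibitor of eIF2 kinases (0.84, adjusted p 0.00242), Eif2ak2, the kinase PKR that senses double-stranded RNA (0.74, adjusted p 0.0376), and Eif2s2, the beta subunit of eIF2 (0.50, adjusted p 0.0127). Eif2ak3, the gene of PERK, differed by 0.27 and did not pass (adjusted p 0.0631).

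Of 49 other targets and partners of ATF4 and CHOP, 47 were measured. There 28 passed as higher and 1 as lower, with a median of 0.54. The hormone genes Gdf15 and Fgf21 led. Gdf15 changed by 4.46 (adjusted p 0.00363), and Fgf21, not well above background in any array of 1 control group, was at least 15.7-fold higher (adjusted p 0.00637). The cationic amino acid transporter gene Slc7a3 changed by 3.38, the translation repressor gene Eif4ebp1 by 2.28 and the mitochondrial one-carbon enzyme gene Mthfd2 by 1.52 (adjusted p 0.00378, 0.00242 and 0.00563). Slc7a5, a large neutral amino acid transporter gene, was the 1 that fell, by 0.64 on the log2 scale (adjusted p 0.0105). Its partner chain gene Slc3a2, which joins SLC7A5 in the plasma membrane and was named after its value was seen, rose by 0.55 (adjusted p 0.0165).

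Genes of the ATF6 and IRE1-XBP1 arms, which raise ER chaperones and degradation factors, were higher in 18 of 18 cases, and all 18 passed, with a median of 0.94. The largest changes were those of Derl3 (2.13, adjusted p 0.00557), Sdf2l1 (1.80, adjusted p 0.00341), Creld2 (1.45, adjusted p 0.00242), Herpud1 (1.33, adjusted p 0.00203) and Manf (1.28, adjusted p 0.00346). Immediate early genes, which answer neuronal activity and handling and to which Atf3 is often counted, were compared through a list of 13. None passed as higher and 3 passed as lower: Dusp1 (-1.35, adjusted p 0.0236), Jun (-0.55, adjusted p 0.00242) and Btg2 (-0.53, adjusted p 0.0154), with a list median of -0.37. Of the 3 that were higher, Egr2 differed by 1.41 (adjusted p 0.0546), Egr3 by 1.25 (adjusted p 0.114) and Fosb by 0.08; Egr2 was not well above background in 1 control group, which gives a level at least 2.57-fold higher. The difference between this list and the 10 genes was not tested.

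**Figure D3:**
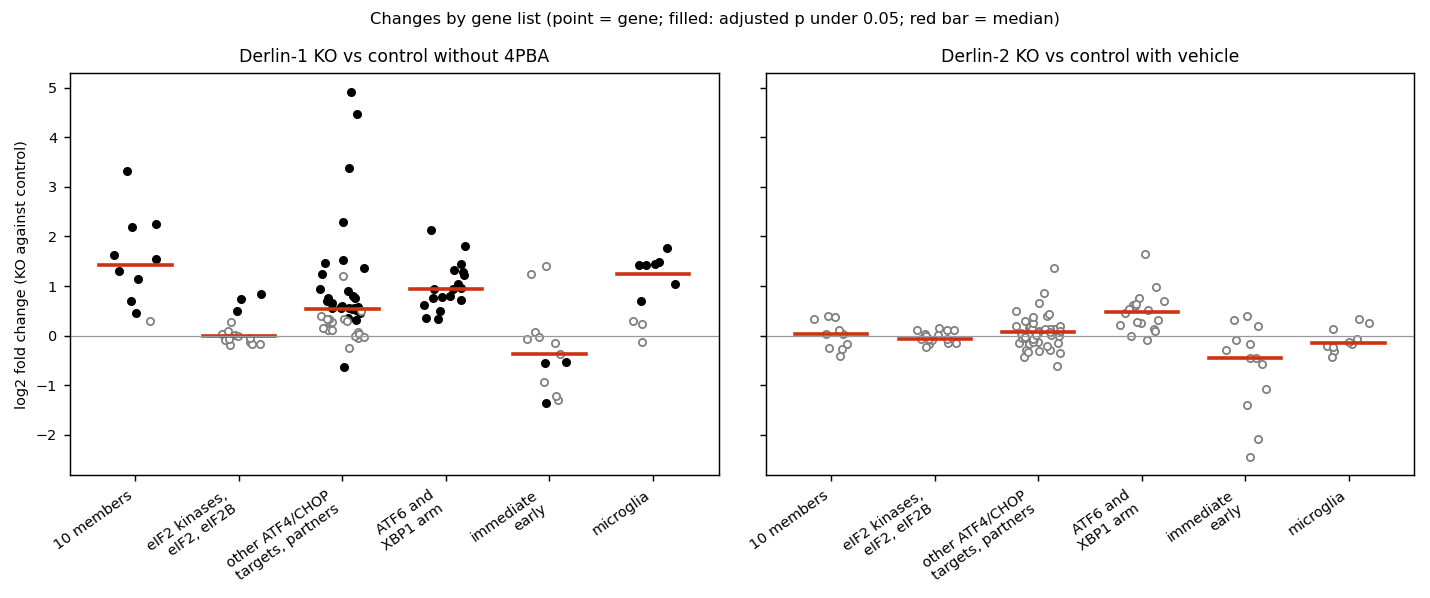
Log2 fold change between KO and control without 4PBA for the 10 genes and 5 other lists (points, genes, filled where the adjusted p was under 0.05; red bars, medians; horizontal scatter within a list has no meaning). In the Derlin-1 line the medians are 1.43 for the 10 genes and 0.94 for the ATF6 and XBP1 arms; in the Derlin-2 line they are 0.04 and 0.48, and no point is filled. The highest point in the Derlin-1 panel, Fgf21, is drawn at its fitted value, for which the text gives a bound.

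Cell type markers moved in the same arrays, and in whole tissue a larger number of cells of a type and more RNA per cell cannot be told apart. Of 10 microglia markers 7 passed as higher, with a median of 1.24. Their summed linear level was 74.2 to 79.9 in vehicle controls and 84.1 to 86.4 in vehicle KO arrays, and 55.9 to 57.9 and 67.3 to 68.2 in the lettered series. This sum follows mainly its brightest probe, that of Itgam (log2 level 5.21 to 6.17, against 2.47 to 3.55 for Csf1r, the next). Of 7 measured reactive astrocyte markers 3 passed as higher (median 0.74), with summed levels of 14.5 to 14.6 against 21.4 to 23.9 and 13.6 to 16.2 against 20.7 to 24.1. Of 8 granule neuron markers 4 passed as lower (median -0.32), with sums of 442 to 449 against 341 to 343 and 333 to 343 against 265 to 270. No marker of Purkinje cells, oligodendrocytes or endothelium passed. All 10 microglia markers were well above background on all 24 arrays; of the T cell and reactive astrocyte markers Cd8a and Steap4 were so on 0. The part of these shifts in the changes of the 10 genes was not tested.

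Under 4PBA the 10 genes were again higher in Derlin-1 KO than in control cerebella, but none passed. The median difference was 0.92, from 1.28 among numbered and 0.54 among lettered arrays. All 10 had an unadjusted p under 0.05 in limma, where 5.42% of all genes were higher at that level, and the smallest adjusted p was 0.0892, for Trib3 (2.34, SE 0.45). Of all genes 0.0472% were called.

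The arrays behind this were not alike. In the numbered series Trib3 read -1.88 and -1.25 in 4PBA controls and 1.68 and 1.71 in 4PBA KO arrays. In the lettered series it read -1.86 and -2.03 in controls, 1.05 on KO array a and -2.11 on the array labelled 4PBA KO b. Of the 8 Derlin-1 KO arrays this was the 1 at which Trib3 lay in the range of controls. Ddit3 read -0.61 and -0.65 in numbered controls against 0.57 and 0.72 in KO, and -0.07 and -0.19 in lettered controls against 1.16 on array a and -0.31 on the array labelled b. Chac1 read 0.45 and 0.27 against 2.76 and 2.45, and 1.23 and 0.88 against 2.98 on array a and 0.76 on that labelled b. On 7 of the 8 Derlin-1 KO arrays all 10 genes lay above both controls of their slide and treatment. On the array labelled 4PBA KO b 0 of the 10 did: 6 lay between the controls and 4 below them. No gene had all KO arrays above the controls in both slides, as 2.53% of all genes did.

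**Figure D4:**
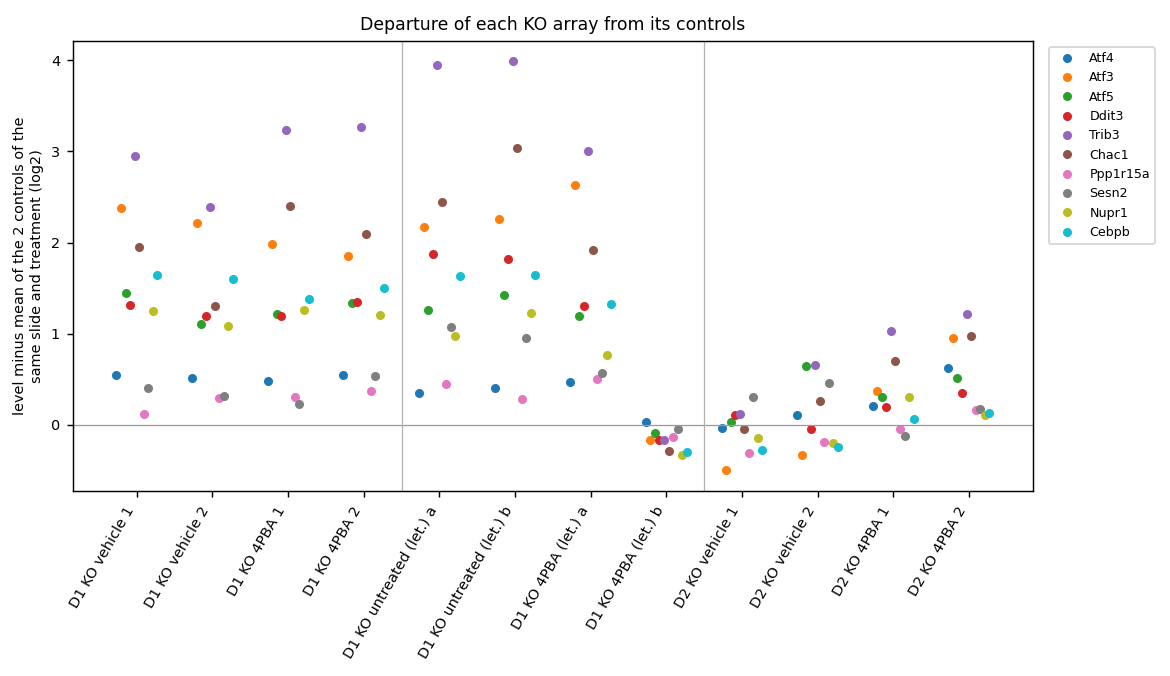
Level of each gene on each array labelled KO minus the mean of the 2 controls of the same slide and treatment (log2; points coloured by gene; vertical lines part the numbered Derlin-1 series, the lettered series and the Derlin-2 line). On 7 of 8 Derlin-1 KO arrays all 10 points lie above 0, with medians from 1.16 to 1.53, while the array labelled 4PBA KO b has a median of -0.16.

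When that array was left out, all 10 genes passed under 4PBA, Ppp1r15a included, in a fit that called 6.18% of all genes. Trib3 then differed by 3.13 (SE 0.18, adjusted p 1.26e-06), Atf3 by 2.27 (SE 0.28, adjusted p 0.000419), Chac1 by 2.08 (SE 0.19, adjusted p 5.25e-05), Ddit3 by 1.29 (SE 0.08, adjusted p 1.43e-06), Atf4 by 0.49 (SE 0.11, adjusted p 0.0199) and Ppp1r15a by 0.42 (SE 0.10, adjusted p 0.0271). The remaining array of that group was taken to vary like the others. Without array a of the same group 2 of the 10 passed, and 0.0945% of all genes. The microglia median under 4PBA was 0.72 with all arrays and 1.02 without the array labelled b. In the numbered series summed granule neuron markers were 320 to 347 on 4PBA KO arrays against 407 to 421 in controls, and reactive astrocyte markers 20.8 to 24.2 against 14.5 to 16.9. Sums in the lettered series overlapped, with 251 to 343 against 313 to 332 for granule neuron markers. Reactive astrocyte markers there had sums of 13.5 to 20.9 against 13.8 to 16.3. The part of these markers in the values of the 10 genes was not tested.

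Arrays with 4PBA were then compared with those without it. Numbered arrays without 4PBA had received vehicle, whereas labels of the lettered ones name no injection. In the lettered series 4PBA and daily injection can thus not be told apart, and in both series 4PBA goes with the slide row. In Derlin-1 controls the 10 genes differed by -0.12 to 0.08, and 0 passed (limma; 0 at an unadjusted p under 0.05, 0.0295% of all genes called). In Derlin-1 KO cerebella all 10 were lower with 4PBA, with a median of -0.49, 0 passed and 5 had an unadjusted p under 0.05 (limma; 0.0354% of all genes called, 4.54% lower at the unadjusted level). Numbered arrays had a median of 0.04 and lettered arrays one of -1.01. Trib3 differed by -1.06 (SE 0.45, adjusted p 0.734), with a confidence interval from -2.01 to -0.10, by 0.24 in the numbered series and by -2.36 in the lettered series. Ddit3 differed by -0.55 (SE 0.21, adjusted p 0.734), with -0.01 and -1.09 in the 2 series. This comparison shares its KO arrays with the KO comparisons above. Microglia markers had a median of -0.40 in it, with 10 of 10 lower and 0 passing, and a median of -0.09 with 2 of 10 higher without the array labelled 4PBA KO b. Their part in the lower values was not tested.

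Those values depended on which array of the lettered 4PBA KO group was kept. With array b left out the 10 differences ran from -0.27 to 0.01, and Trib3 differed by -0.27. Without array a, 7 of the 10 passed as lower with 4PBA, Trib3 by -1.85 (adjusted p 0.000407), and 1.14% of all genes were called. The change in the KO effect with 4PBA against without it passed for 0 of the 10 (1 at an unadjusted p under 0.05; 0.0118% of all genes called), with a median of -0.52, and it ran from -0.27 to 0.13 without the array labelled b. Without array a 3 of the 10 passed, and 0.183% of all genes. With all arrays the median was 0.02 among numbered and -0.93 among lettered arrays, and Trib3 had 0.59 and -2.55.

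In the Derlin-2 line the 10 genes did not pass in any comparison. With vehicle the differences ran from -0.42 for Atf3 to 0.39 for Trib3, with a median of 0.04, and 1 had an unadjusted p under 0.05 (limma; 0.118% of all genes called). Trib3 read -2.06 and -1.83 in controls, -1.82 on KO vehicle 1 and -1.28 on KO vehicle 2. Atf5 read 2.91 and 2.95 in controls against 2.97 and 3.59, and Sesn2 1.32 and 1.24 against 1.59 and 1.74. These 3 genes had both KO arrays above both controls, as 21.5% of all genes did. Atf3 (-3.66 and -3.29 against -3.97 and -3.81), Cebpb (-0.35 and -0.13 against -0.51 and -0.48), Nupr1 (0.22 and 0.29 against 0.11 and 0.05) and Ppp1r15a (1.83 and 1.89 against 1.55 and 1.67) had both below, as 24.3% of all genes did. The group was thus split, at shares of all genes that make such gaps common. In the same arrays 10 of 13 immediate early genes were lower, with a list median of -0.45 and summed linear levels of 21.6 to 22.4 in KO against 33.9 to 38.7 in controls. The list median was -0.41 without the array labelled KO vehicle 1, and the part of these genes in the lower values was not tested.

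The intervals leave room for changes of some size. The Trib3 difference with vehicle had a 95% confidence interval from -0.97 to 1.74, Ddit3 from -0.59 to 0.66 and Atf4 from -0.30 to 0.38. When KO vehicle 1, the array with the Derl2 level of a control, was left out, the differences ran from -0.33 to 0.66 and again 0 passed (0 at an unadjusted p under 0.05; 0.487% of all genes called). The ATF6 and IRE1-XBP1 genes had a median of 0.48 with vehicle, 16 of 18 higher and 0 passing, and a median of 0.72 with 17 of 18 higher and 1 passing without that array. The 10 genes had medians of 0.04 and 0.03 in these fits.

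With 4PBA all 10 genes were higher on the Derlin-2 KO arrays, where 42.0% of all genes were above 0, with a median of 0.34 against -0.03 for all genes. None passed, and 1 had an unadjusted p under 0.05 (limma; 0.136% of all genes called). Trib3 read -1.81 and -2.10 in controls and -0.92 and -0.73 in KO arrays (1.13, SE 0.63, interval -0.23 to 2.48). Chac1 read -0.09 and -0.05 against 0.63 and 0.91 (0.84, interval -0.18 to 1.87), and Atf4 5.70 and 5.46 against 5.78 and 6.20 (0.41, interval 0.07 to 0.75). For 7 of the 10 both KO arrays lay above both controls, as for 13.8% of all genes; Ppp1r15a, Sesn2 and Nupr1 overlapped. Microglia markers had a median of -0.05 in these arrays. Choroid plexus markers were higher in 5 of 5 cases, with a median of 1.89 and 0 passing, and their summed linear level was 160 to 215 on KO arrays against 31.7 to 81.8 in controls. Their part in the higher values was not tested.

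None of the 10 genes passed between 4PBA and vehicle in Derlin-2 controls (differences of -0.32 to 0.13; limma, 0 at an unadjusted p under 0.05, 0.13% of all genes called). In Derlin-2 KO cerebella none passed either (0.136% of all genes called), with differences of -0.24 to 1.11 and 1 unadjusted p under 0.05, for Ppp1r15a (0.44, interval 0.07 to 0.81, adjusted p 0.441 in limma). There 8 of the 10 were higher with 4PBA, where 38.0% of all genes were above 0, with a median of 0.31 against -0.06 for all genes. Atf3 read -3.97 and -3.81 with vehicle and -3.07 and -2.49 with 4PBA (1.11, interval -0.23 to 2.45). For 6 genes, Atf3, Ddit3, Trib3, Chac1, Ppp1r15a and Cebpb, both 4PBA arrays lay above both vehicle arrays, as for 14.3% of all genes, and for Sesn2 both lay below, as for 32.7%. These KO arrays also enter the KO comparisons above. Immediate early genes were higher in 11 of 13 cases, with a median of 0.44 and 0 passing, and their summed linear level was 32.7 to 36.0 with 4PBA against 21.6 to 22.4 with vehicle. Their part in the higher values was not tested. Without the array labelled KO vehicle 1 the 10 differences ran from -0.44 to 1.03, with 8 higher and a median of 0.34, and 11 of 13 immediate early genes were higher, with a median of 0.55.

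The KO effects of both lines without 4PBA were compared in 1 test. All 10 genes were higher in the Derlin-1 than in the Derlin-2 contrast, with a median of 1.41, but none passed (0.065% of all genes called). The smallest adjusted p was 0.112, for Ddit3 (1.52, interval 0.75 to 2.28), Nupr1 (1.31, interval 0.66 to 1.96) and Cebpb (1.89, interval 0.98 to 2.80). Trib3 had 2.93 (interval 1.27 to 4.59, adjusted p 0.14). In limma 8 of the 10 had an unadjusted p under 0.05, where 7.36% of all genes were higher at that level. Without the array labelled Derlin-2 KO vehicle 1 the median was 1.47, and the differences ran from 0.23 to 2.66.

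The 10 genes varied together over the 12 group means, each taken relative to its slide, as a description of means that share arrays and slides. The median correlation of a gene with the other 9 was 0.96 for Ddit3, Trib3 and Cebpb, 0.91 for Atf4, 0.83 for Sesn2 and 0.79 for Ppp1r15a. Among 14256 genes outside the group the patterns most like that of Ddit3 were those of Cyb5r1 (r = 0.994), Ddr2 (0.993), Herpud1 (0.993), Arhgef2 (0.992) and Slc7a1 (0.992). For Trib3 they were Slc7a1 (0.996), Nucb2 (0.992), Ddr2 (0.992), Trim66 (0.989) and Bmper (0.989). Without the arrays labelled 4PBA KO b and Derlin-2 KO vehicle 1 the median correlations were 0.96 for Ddit3, Trib3 and Cebpb, 0.92 for Atf4, 0.82 for Sesn2 and 0.83 for Ppp1r15a, and the 10 likenesses ran from 0.974 (Bmper) to 0.996 (Slc7a1 with Trib3). The order changed: for Ddit3, Cyb5r1 ranked 1 and Herpud1 4, but Arhgef2 10, Slc7a1 14 and Ddr2 19, and for Trib3 Bmper ranked 31.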

How the data were processed

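Cy3-labelled RNA of 24 cerebellum samples was read with Agilent Feature Extraction 10.7.1.1, per the submitters' processing notes. The deposited value used was the processed signal of each spot, a linear intensity after background subtraction, per the file headers, with no normalization between arrays recorded. From these the log2 intensity minus the array's 75th percentile was computed here; control spots and spots flagged as outliers were left out and repeated spots of a probe averaged. The authors' series table holds the same intensities in linear form, set against the scanner values. Symbols came from transcript accessions through a RefSeq table (GRCm38.p6); the arrays' build differs, so none of that table's gene coordinates are given, and promoter positions are those of RefSeq.

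A probe was kept if some group had it well above background on both of its arrays, and the probe with the highest mean stood for a gene. All arrays entered 1 model with 12 group means (limma 3.58.1, R 4.3.3), and Derlin-1 comparisons were averaged over both series within slides. Tests were two-sided, with Benjamini-Hochberg adjustment over all genes and a threshold of 0.05; every p is limma's. The number of arrays limits the precision: the median SE was 0.11 for averaged and 0.15 for within-slide comparisons. A change against a group with no array well above background is a bound, from the lowest signal well above background on each array. The model was tested on simulated data.

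All 10 genes and every probe were named whatever their values. Of each other list up to 5 genes with the largest passing change were named, plus up to 2 passing the other way. Eif2ak3, Slc3a2, Egr2, Egr3 and Fosb were named beyond this rule, as were single markers where detection or level was described. The genes and lists were chosen with earlier results of these data known. Alternatives were other background corrections, normalizations and probe filters, spots with outlier flags kept, the series table, every probe, each series alone, Derlin-1 arrays alone, a replicate block and leaving out each array. Background correction by normexp used median signals, because the mean signals planned for it were not in the files used here; this, and correlations without the arrays labelled Derlin-1 4PBA KO b and Derlin-2 KO vehicle 1, were chosen after seeing the data.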

Additional observations from a re-analysis of the deposited data

Results flagged for a closer look

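For 4 genes all Derlin-1 KO arrays without 4PBA lay above their controls while both arrays labelled Derlin-2 KO with vehicle lay below theirs. In the Derlin-2 line the differences of these genes did not pass, and 24.3% of all genes had such a gap downwards. Of the 1933 genes with that gap upwards in the Derlin-1 line 19.6% had the gap downwards in the Derlin-2 line, which is 2.23% of all genes. The KO effect in the Derlin-1 line minus that in the Derlin-2 line was 2.67 for Atf3, 0.54 for Ppp1r15a, 1.31 for Nupr1 and 1.89 for Cebpb. The test of that difference did not pass for any of the 4 (limma, adjusted p 0.166, 0.264, 0.112 and 0.112). Without the array labelled Derlin-2 KO vehicle 1 the differences were 2.59, 0.48, 1.34 and 1.88.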

How the results depend on the processing

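In Derlin-1 KO against control without 4PBA 8 to 9 of the 10 genes passed when single arrays were left out (3.86% of all genes called without untreated KO a to 16.5% without untreated KO b), 7 in the lettered series alone (3.54%) and 0 in the numbered series alone (0.0118%), and the cause was not tested. The count over all 12 probes was 7 to 11 over single arrays left out, with the 7 without untreated KO a, where 1.07% of all probes were called, against 1.66% to 8.77% without the others. The other single-array ranges were 0 to 10 for Derlin-1 KO against control with 4PBA, 0 to 7 for 4PBA in Derlin-1 KO, 0 to 3 for the change of the KO effect with 4PBA and 0 to 5 for the series difference of the KO effect with 4PBA (0.0295% of all genes called with all arrays, 0.331% without array a); the upper ends rest on 1 array of the lettered 4PBA KO group, array b left out in the first and array a in the others, and the cause was not tested. The other comparisons kept a count of 0 under every setting run.

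Deviations of arrays that share a replicate number or letter were related in part of the pairs (7 of 18 correlations above 0.1, range -0.15 to 0.40). In the lettered series 5 of 6 were above 0.1, with -0.04 for the other. Whether replicates are paired was not settled, and the main model had no replicate block. With a replicate block 10 of 10 genes passed in Derlin-1 KO without 4PBA (limma), Ppp1r15a being added at an adjusted p of 0.0453 while 12.9% of all genes were called.

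No gene that passed changed its direction. Signs that turned belonged to differences that did not pass, and the cause was not tested. In the numbered series alone 4PBA in Derlin-1 KO gave 0.04 for Atf5, 0.45 for Chac1, 0.04 for Nupr1, 0.05 for Ppp1r15a, 0.07 for Sesn2 and 0.24 for Trib3, and the line difference of Sesn2 was -0.02. Normexp gave -0.01 for Ddit3 in Derlin-2 KO with vehicle. Over single arrays left out, 4PBA in Derlin-1 KO gave -1.39 to 0.01 for Atf3 and -0.30 to 0.01 for Ppp1r15a, the upper ends without 4PBA b of the lettered KO. Derlin-2 KO with vehicle gave -0.03 to 0.11 for Atf4, -0.05 to 0.26 for Chac1 and -0.05 to 0.11 for Ddit3, and Derlin-2 KO with 4PBA gave -0.04 to 0.16 for Ppp1r15a and -0.12 to 0.18 for Sesn2.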
